A study of Mus musculus with 26 samples.

Results

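The genes described are 47 that encode plasma proteins of the complement and coagulation systems, together with a few carriers that the liver secretes beside them. They are the rows of the combined count table whose gene symbol is 1 of 47 listed names, 47 of 54532 genes in the table. All 47 had enough reads to be tested, among 14415 genes tested in all. They fall into 12 groups by role, from the proteases that open the classical pathway of complement to the haem and haemoglobin carriers.

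Complement is a cascade of plasma proteins in which each activated protease cleaves the next component. It marks microbes for uptake and ends in a pore built from the terminal components. Coagulation is a parallel cascade of proteases that ends when thrombin turns fibrinogen into fibrin, and plasmin later dissolves the clot. Hepatocytes make most of these proteins, and some of them, among them fibrinogen and haptoglobin, are acute phase proteins whose synthesis is raised by interleukin-6 in inflammation.

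The study gave C57BL/6 mice the herbicide safener benoxacor, a compound mixed into herbicide products to protect the crop, and sequenced RNA from their livers. Doses were 0, 0.5, 5 and 50 mg/kg by oral gavage on 3 days in a row, and livers were collected 24 hours after the last one. There were 5 mice at 0 mg/kg, 5 at 0.5, 8 at 5 and 8 at 50 mg/kg, with 1 library per mouse, and all had been acclimatised between 4 and 8 weeks with their bedding mixed. The labels give no sex and no genetic change, and they do not say what the 0 mg/kg mice were gavaged with. The mouse numbers form 2 runs, 601 to 616 with 15 mice and 619 to 632 with 11 mice. The run from 601 held 4, 3, 4 and 4 mice at 0, 0.5, 5 and 50 mg/kg and the run from 619 held 1, 2, 4 and 4. In each run the numbers went up with dose, so dose and number order cannot be told apart, and the run from 619 has a lone control, 0 mg/kg replicate 5. Replicate numbers within a dose follow the mouse numbers.

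Total counts were between 5433074 and 9088626 per library, with a median of 7105531. The liver label was checked against 10 hepatocyte markers, all of which had reads in the libraries and together made up 45959 to 126444 CPM, the counts scaled to library size. Markers of steroid-producing cells summed to 3538 CPM in 5 mg/kg replicate 8 and to at most 18.4 CPM in the other 25 libraries. Levels below are CPM scaled by TMM, a library size correction in edgeR. In a piece of bulk liver, fewer hepatocytes and less RNA of a gene in each hepatocyte cannot be told apart.

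Promoters are shown for 7 genes, because the 3 fibrinogen chain genes sit side by side and varied most between mice, and C4bp, C9, Cp and Cpb2 were the genes whose 0.5 mg/kg mice all lay above the 0 mg/kg mice. Each sequence is the 250 bases before the transcription start in RefSeq on GRCm38.p6, written 5′ to 3′ on the strand of the gene. Capitals mark any match, on either strand, to 4 motifs known from liver promoters. CTGGGAA is a STAT3 type interleukin-6 element and TTCNNNGAA the STAT palindrome. TTGCNNAA is a C/EBP type motif, and GTTAAT is a motif common in promoters of liver genes. The first pair can overlap in letters, as they did in the windows of F9 and Masp2.

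Fgg: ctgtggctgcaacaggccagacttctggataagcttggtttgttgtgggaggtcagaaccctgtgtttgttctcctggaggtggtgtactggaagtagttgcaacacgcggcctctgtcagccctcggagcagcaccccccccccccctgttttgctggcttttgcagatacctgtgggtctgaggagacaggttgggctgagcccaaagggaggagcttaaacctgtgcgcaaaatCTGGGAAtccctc
Fga: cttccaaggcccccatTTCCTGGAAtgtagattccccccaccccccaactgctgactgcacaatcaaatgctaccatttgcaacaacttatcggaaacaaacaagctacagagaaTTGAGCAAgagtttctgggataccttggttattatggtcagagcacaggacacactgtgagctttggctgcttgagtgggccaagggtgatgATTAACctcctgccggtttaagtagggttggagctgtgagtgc
Fgb: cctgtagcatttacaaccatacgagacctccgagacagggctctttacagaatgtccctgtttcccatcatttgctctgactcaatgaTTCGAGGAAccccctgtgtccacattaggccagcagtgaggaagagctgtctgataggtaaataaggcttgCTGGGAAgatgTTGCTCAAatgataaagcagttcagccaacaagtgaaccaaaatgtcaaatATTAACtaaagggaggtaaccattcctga
C4bp: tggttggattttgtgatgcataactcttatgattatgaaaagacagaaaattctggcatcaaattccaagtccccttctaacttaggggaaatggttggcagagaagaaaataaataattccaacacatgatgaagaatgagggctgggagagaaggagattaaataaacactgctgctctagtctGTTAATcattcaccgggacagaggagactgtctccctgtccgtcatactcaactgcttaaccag
C9: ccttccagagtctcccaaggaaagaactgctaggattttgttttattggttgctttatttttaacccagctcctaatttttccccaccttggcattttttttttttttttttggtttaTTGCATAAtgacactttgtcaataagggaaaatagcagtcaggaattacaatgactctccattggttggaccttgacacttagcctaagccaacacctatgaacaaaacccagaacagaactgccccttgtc
Cp: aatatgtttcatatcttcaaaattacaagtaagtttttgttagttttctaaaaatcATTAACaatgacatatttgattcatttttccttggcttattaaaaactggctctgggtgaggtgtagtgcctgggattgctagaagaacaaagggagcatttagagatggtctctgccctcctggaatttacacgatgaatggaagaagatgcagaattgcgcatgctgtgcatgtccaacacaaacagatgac
Cpb2: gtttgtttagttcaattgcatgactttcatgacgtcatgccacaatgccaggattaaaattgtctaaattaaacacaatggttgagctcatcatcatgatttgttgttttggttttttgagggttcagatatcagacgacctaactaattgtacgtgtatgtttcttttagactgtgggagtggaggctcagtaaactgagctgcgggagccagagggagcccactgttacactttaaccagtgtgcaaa

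These windows are chr3:83007474-83007723 on the plus strand for Fgg, chr3:83025903-83026152 on the plus strand for Fga, chr3:83049864-83050113 on the minus strand for Fgb, chr1:130661619-130661868 on the minus strand for C4bp, and chr15:6445096-6445345, chr3:19956804-19957053 and chr14:75242037-75242286 on the plus strand for C9, Cp and Cpb2. Of the 47 genes, 37 had a promoter in the RefSeq table. GTTAAT was found in 11 of these 37 (29.7%) and in 6.52% of all 27025 promoters, and TTGCNNAA in 10 of 37 (27%) and 9.55% of all. TTCNNNGAA was in 7 of 37 (18.9%) against 7.18% of all, and CTGGGAA in 5 of 37 (13.5%) against 9.08% of all. The Fgb window held all 4 motifs, with CTGGGAA 91 to 85 bases and TTGCNNAA 80 to 73 bases before the start. Fga held 3 of them and lacked CTGGGAA, while Fgg held CTGGGAA alone, 13 to 7 bases before its start. C4bp and Cp each held GTTAAT, C9 held TTGCNNAA, and none of these 4 letter patterns was in the Cpb2 window. In another annotation, GENCODE M21, the genes Fga, C9 and C4bp reach into their windows, with Fga beginning at chr3:83026076. The GTTAAT match of the Fga window, on its minus strand, lies in that shared stretch. A match is a run of letters and no evidence of binding.

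Across genes, levels were compared per length, as RPKM (CPM divided by gene length in kilobases) averaged over the 26 mice. Fgg was the highest of the 47 at 2088 RPKM, followed by the haem carrier Hpx at 1813, the haemoglobin carrier Hp at 1422, Fgb at 1180.0, Fga at 1010.0 and complement C3 at 930.3. The lowest were complement factor B (Cfb) at 4.29 RPKM, C2 at 9.13, Masp1 at 15.3 and Pros1 at 16.9. Cfb and C2 lie side by side on chromosome 17, and macrophages make both as well. Together the 47 genes took 3.175% to 7.374% of a library's counts.

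**Figure D1:**
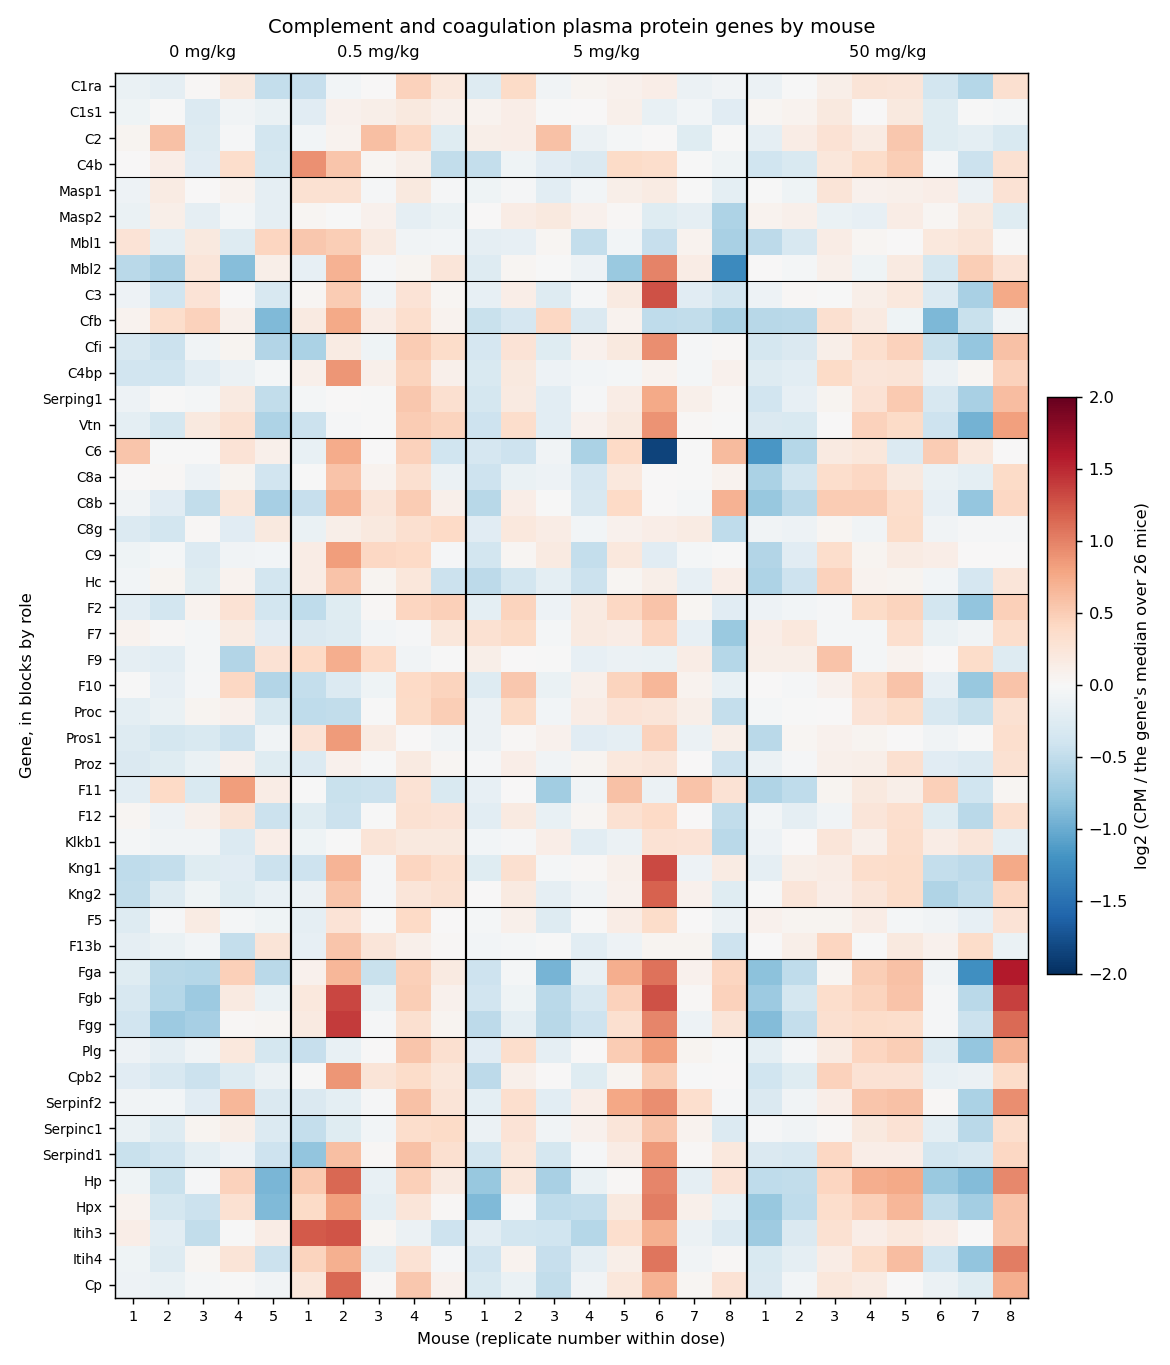
Heat map of the 47 genes (rows, in blocks by role) in the 26 mice (columns, by dose from 0 to 50 mg/kg, replicate number within dose), coloured by log2 of the CPM over the gene's median of the 26 mice, with the colour scale ending at -2 and 2. Whole columns stand out more than dose blocks do: 5 mg/kg replicate 6, 50 mg/kg replicate 8 and 0.5 mg/kg replicate 2 are high across many genes, and 50 mg/kg replicate 7 is low.

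At the lowest dose, 0.5 against 0 mg/kg, none of the 47 genes passed an adjusted p of 0.05 (0% of all 14415 genes did). Their fold changes leaned upward: 42 of 47 were positive, where 50.8% of all genes were, and the median log2 fold change was 0.25 against 0.01 over all genes. At an unadjusted p under 0.05 there were 12 of the 47, where 6.99% of all genes reached it: 11 were positive (3.79% of all genes) and 1 negative (3.20%). The 12 were protein S (Pros1), the fibrinolysis inhibitor Cpb2, C4b-binding protein (C4bp), the pore component C9, factor IX (F9), the fibrinogen chains Fgg and Fgb, ceruloplasmin (Cp), kininogen (Kng1), the hyaluronan-binding Itih3, heparin cofactor II (Serpind1) and, as the negative one, factor XI (F11).

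Their log2 fold changes at 0.5 mg/kg were 0.77 for Fgg, 0.72 for Fgb, 0.64 for Itih3, 0.63 for Cpb2, 0.58 for Kng1, 0.57 for C4bp, 0.56 for Pros1, 0.51 for Cp, 0.48 for C9, 0.47 for Serpind1, 0.45 for F9 and -0.47 for F11. Standard errors were between 0.16 (Pros1) and 0.34 (Fgb), and the smallest adjusted p was 0.492 (edgeR, Benjamini-Hochberg). DESeq2 and limma-voom also passed 0 of the 47, with 13 and 8 at an unadjusted p under 0.05 (7.67% and 6.94% of all genes). The smallest adjusted p of the 47 was 0.107 in DESeq2 and 0.544 in limma-voom. In edgeR on the run from 601 alone it was 0.0596. All 5 mice at 0.5 mg/kg lay above all 5 at 0 mg/kg for C4bp, C9, Cp and Cpb2, which is 4 of 47 genes where 0.645% of all genes did so. No gene of the 47 had all 5 below, where 0.756% of all genes did.

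At 0.5 mg/kg, single animals moved the count at an unadjusted p under 0.05, and the lean changed most without 0 mg/kg replicate 5. Without this lone control of the run from 619, 36 of 47 fold changes were positive (46.7% of all genes) and the median was 0.13. Of the 5 mice at 0.5 mg/kg, replicate 1 had 2311 CPM of Saa1, the inducible serum amyloid gene, and replicate 2 had 3233. No other of the 26 exceeded 655.3. Without both of those mice, 40 of 47 fold changes were positive and the median was 0.23, where 46.3% of all genes were, but 4 of 47 (where 11.1% of all genes) had an unadjusted p under 0.05. Without replicate 2 alone the count was 3 (5.22% of all genes), and 43 of 47 fold changes were positive (48.4%). Without replicate 1 alone the count was 16 (9.08%), and 45 were positive (49.8%). Some markers of other cells were also high in these mice. The 7 neutrophil markers summed to 33.95 CPM in replicate 1 and 15.09 in replicate 2, against at most 2.283 in replicates 3 to 5 of that dose. At 0 mg/kg they summed to 1.51 to 15.49, a range that holds replicate 2. Stellate cell and fibroblast markers summed to 324.8 and 339.7 CPM in replicates 1 and 2, against 133.6 to 209.2 in replicates 3 to 5 and 160.3 to 232.8 at 0 mg/kg. The Kupffer cell, endothelial and lymphocyte lists lay within the control range in replicates 1 and 2. Kupffer cell and macrophage markers summed to 353.7 and 322.8 CPM, against 218.8 to 373.6 at 0 mg/kg. Endothelial markers summed to 301.3 and 263.1, against 250.9 to 310.8, and lymphocyte markers to 7.066 and 3.773, against 3.019 to 8.959. Steroid-producing cell markers summed to 7.066 and 12.13 CPM, against 2.24 to 7.095 at 0 mg/kg, so replicate 2 lay above that range. The part of these cells in the values was not tested. The 10 hepatocyte markers also varied, summing to 45959 CPM (replicate 1) to 118735 CPM (replicate 2) at 0.5 mg/kg, with a median of 92463. At 0 mg/kg they summed to 48688 to 67083 CPM (median 54960). Alb, the albumin gene, is 1 of the 10 and alone was 105976 of the 118735 CPM in replicate 2. The part of these markers in the lean was not tested. With the library scaling computed without secreted protein genes, the counts were again 42 and 12 of 47. Within the run from 601, 34 of 47 fold changes were positive and 13 had an unadjusted p under 0.05 (16.2% of all genes). Within the run from 619, with its lone control, 41 were positive (50.2%) and 2 had an unadjusted p under 0.05 (12.7%).

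At 5 against 0 mg/kg none of the 47 passed (0% of all genes did), and 38 of 47 fold changes were positive beside 51.9% of all genes, with a median of 0.13. Kng1 alone had an unadjusted p under 0.05, 1 of 47 beside 6.18% of all genes (2.73% positive and 3.45% negative). Its log2 fold change was 0.58 (SE 0.25), and its adjusted p (edgeR, Benjamini-Hochberg) was 0.78. The next by p were the mannose-binding lectin Mbl1 (-0.33), Pros1 (0.29), Kng2 (0.40), Serpind1 (0.36), the terminal component C6 (-0.42), Cpb2 (0.25), complement factor I (Cfi, 0.33), F11 (-0.26), protein Z (Proz, 0.17), C4bp (0.19) and Cfb (-0.21). DESeq2 and limma-voom passed 0 of the 47 at this dose too, with 2 and 1 at an unadjusted p under 0.05 (6.81% and 6.22% of all genes). No gene of the 47 was separated between the doses, where 0.0832% of all genes lay wholly above the controls and 0.139% wholly below. The runs did not share the lean: 23 of 47 were positive within the run from 601 (50.6% of all genes) and 39 within the run from 619 (54.2%). Without 5 mg/kg replicate 8, where the steroid-cell markers were high, and replicate 6, 34 of 47 were positive (50.2% of all genes) and 0 had an unadjusted p under 0.05 (5.27%).

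At 50 against 0 mg/kg, none of the 47 genes passed, while 0.00694% of all genes did (Zbtb16, a transcriptional repressor outside the 47). Positive fold changes numbered 42 of 47 beside 51.1% of all genes, with a median of 0.11, and 1 of 47 had an unadjusted p under 0.05 beside 5.11% of all genes (2.54% positive and 2.57% negative). That gene was C4bp, with a log2 fold change of 0.33 (SE 0.16) and an adjusted p of 0.974 (edgeR, Benjamini-Hochberg). The others of smallest p were Cpb2 (0.33), F11 (-0.38), Kng1 (0.44), Pros1 (0.27), F9 (0.28), the factor XIII subunit F13b (0.24), Kng2 (0.29), the C1 protease C1s1 (0.16), Proz (0.18), Fgb (0.40) and Mbl2 (0.32). DESeq2 and limma-voom again passed 0, with 1 and 0 at an unadjusted p under 0.05 (5.53% and 5.18% of all genes). None of the 47 was separated from the controls, where 0.118% of all genes lay wholly above them and 0.0486% wholly below. Without the lone control of the run from 619 the positive count was 36 of 47 at 0.5 mg/kg (46.7% of all genes), 30 at 5 (52.1%) and 28 at 50 (48.4%).

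**Figure D2:**
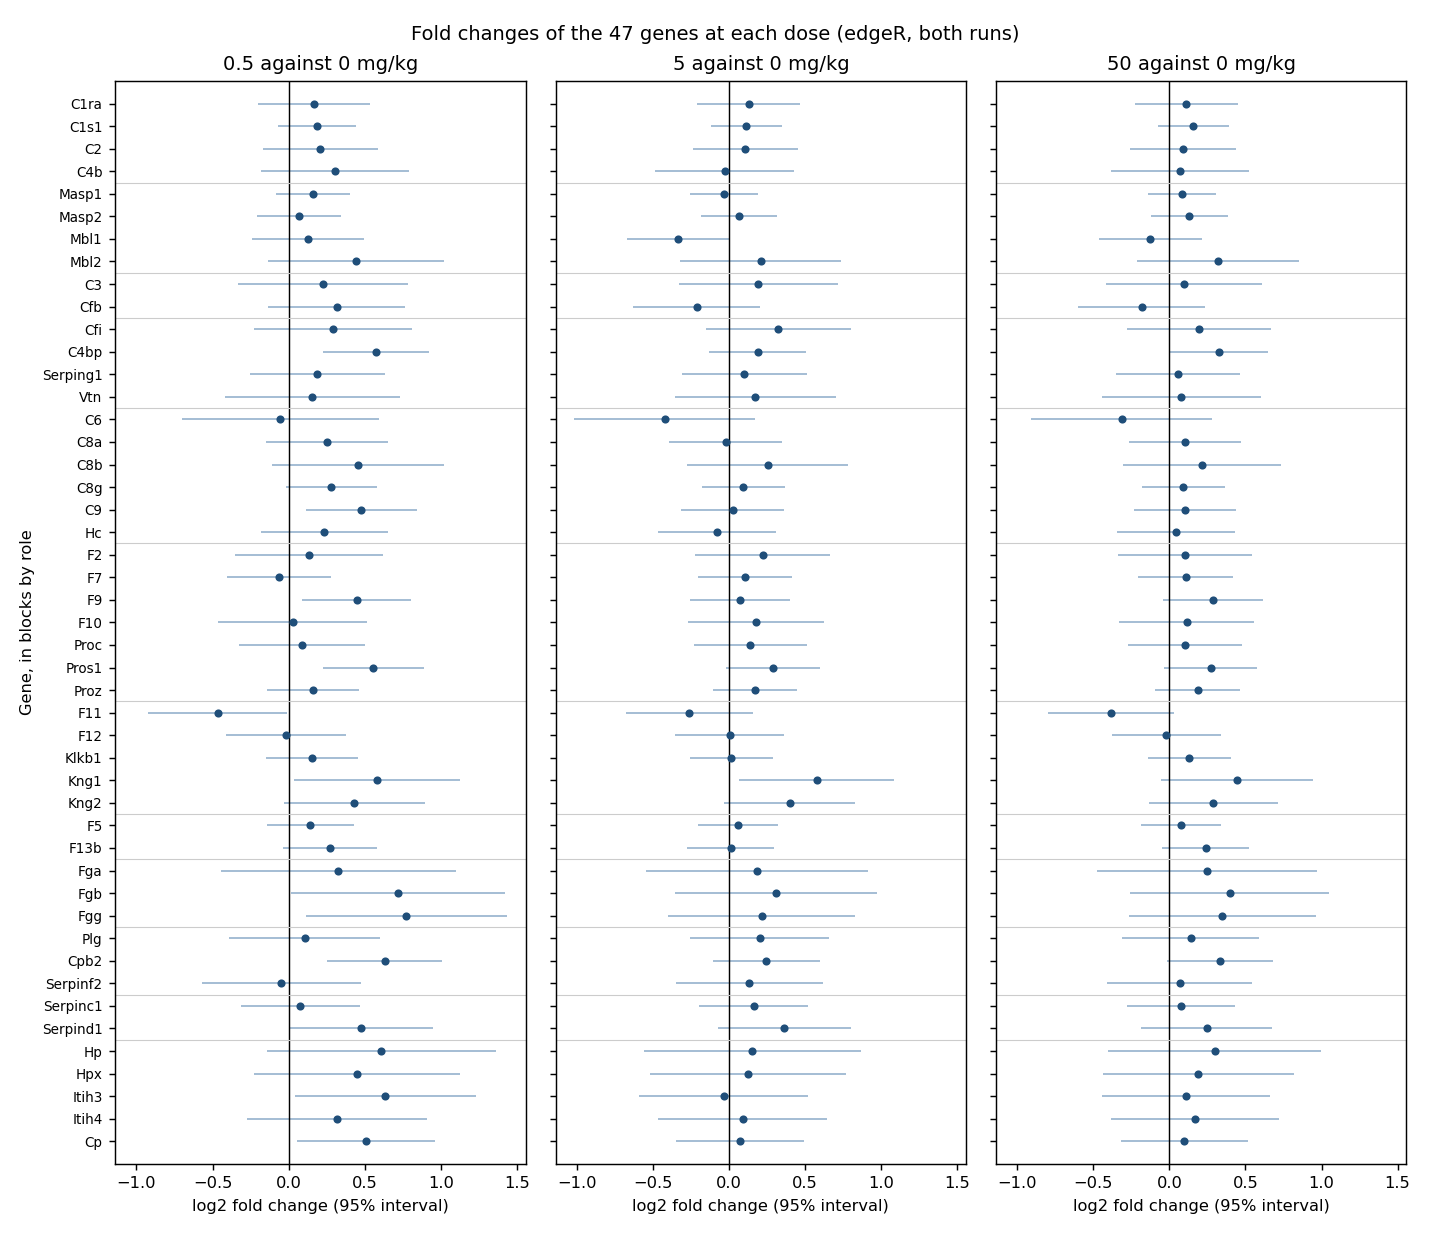
Log2 fold changes (points) with 95% confidence intervals (lines) of the 47 genes at 0.5, 5 and 50 mg/kg, each against 0 mg/kg, from edgeR with all 26 mice. Most points sit right of 0 in each panel, 42, 38 and 42 of 47, and most intervals cross 0. The 3 panels share the same 5 control mice.

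The 3 dose comparisons share their controls, so a low or high control moves all of them together. Within single runs some fitted changes passed 2-fold. Log2 fold changes were 1.03 for Itih3 and for Fgg in the run from 601 at 0.5 mg/kg. They were 1.26 for Hp and for Hpx in the run from 619 at 5 mg/kg. In the fit over both runs, no change of the 47 reached 2-fold at any dose. The whole 95% interval lay within 2-fold up or down for 37 of 47 genes at 0.5 mg/kg, 45 at 5 and 46 at 50. The widest intervals were those of the fibrinogen chains, Hp and Hpx, so changes under 2-fold in these were least well resolved.

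By role, all 4 complement inhibitors, all 3 fibrinogen chains, both anticoagulant serpins and both of F5 and F13b had positive fold changes at each dose. Of the 7 vitamin K dependent proteins 6 were positive at 0.5 mg/kg and 7 at 5 and at 50, and of the 5 plasma carriers 5, 4 and 5 were. The classical pathway had 4, 3 and 4 of 4, the lectin pathway 4, 2 and 3 of 4, C3 with Cfb 2, 1 and 1 of 2, the terminal components 5, 3 and 5 of 6, the contact system 3, 4 and 3 of 5 and fibrinolysis 2, 3 and 3 of 3. None of these genes passed the adjusted threshold, so the counts describe signs only.

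Between the dosed groups, 0 of 47 genes passed in any pair (0% of all genes did in each). At 5 against 0.5 mg/kg 12 of 47 were positive beside 50.8% of all genes, and 8 of 47, all negative, had an unadjusted p under 0.05 beside 7.02% of all genes (2.96% positive and 4.07% negative). The smallest p values belonged to C9 (-0.46), Mbl1 (-0.46), Cfb (-0.53) and C4bp (-0.39). At 50 against 0.5 mg/kg 8 of 47 were positive beside 49.1% of all genes, and 3 of 47 had an unadjusted p under 0.05, all negative, beside 3.88% of all genes (1.87% negative). These were Cfb (-0.50), C9 (-0.38) and Cp (-0.41), and Itih3 (-0.53) was next by p. Without both mice of high Saa1 the positive count at 50 against 0.5 mg/kg was 17 of 47. At 50 against 5 mg/kg 27 of 47 were positive beside 49.3% of all genes and 0 had an unadjusted p under 0.05 beside 4.85% of all genes (2.45% positive and 2.40% negative), with F13b (0.23), F9 (0.21), Mbl1 (0.21) and Masp1 (0.12) first by p. Leaving out 5 mg/kg replicate 6 moved that positive count to 40, and leaving out 50 mg/kg replicate 8 moved it to 18. For these counts between dosed groups with mice left out, the share of all genes was not computed.

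The classical pathway starts when the C1 proteases C1ra and C1s1 cleave C4 and C2. C1s1 was the steadiest of all 47 genes, with a coefficient of variation of 9.39% over the 26 mice. It was at 527, 555, 466, 536 and 509 CPM at 0 mg/kg, 482, 598, 606, 645 and 599 at 0.5, 478 to 615 (median 561) at 5 and 476 to 642 (median 567.9) at 50. All dosed groups overlapped the controls. C4b, the most abundant per length of the 4 and hard to tell from its near-identical copy C4a, was at 1348, 1471, 1146, 1713 and 1053 CPM at 0 mg/kg, 2540.0, 1971, 1388, 1460.0 and 957 at 0.5, 962 to 1753 (median 1267) at 5 and 1004 to 1900.0 (median 1446) at 50. Its highest value of all mice was in 0.5 mg/kg replicate 1 and its lowest in replicate 5 of the same dose. C1ra averaged 161 ± 27.2, 180.1 ± 41.8, 176 ± 24.6 and 174 ± 35.6 CPM (SD) at the 4 doses from 0 to 50 mg/kg, and C2 averaged 34.2 ± 9.57, 38.1 ± 9.3, 35.1 ± 6.49 and 34.6 ± 7.55. Log2 fold changes of these 4 genes against 0 mg/kg lay between -0.03 and 0.30 over the 3 doses.

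The lectin pathway is opened by the mannose-binding lectins Mbl1 and Mbl2, which carry the proteases Masp1 and Masp2. Mbl1 was at 399, 288, 379, 277 and 446 CPM at 0 mg/kg, 479, 466, 376, 316 and 319.8 at 0.5, 211 to 348 (median 294) at 5 and 231 to 398 (median 336) at 50. The 5 mg/kg mice reached down below every control and overlapped them at the top, and the log2 fold change at 5 mg/kg was -0.33 (95% interval -0.67 to 0.00). Mbl2 varied more, with 289, 268, 498, 232 and 454 CPM at 0 mg/kg, 372, 680.5, 412, 433 and 496 at 0.5, 174 to 833 (median 403) at 5 and 329 to 592 (median 435) at 50. Its extremes were both at 5 mg/kg, in replicate 6 (highest) and replicate 8 (lowest), a library that also had the lowest Mbl1 and Masp2. Masp1 stayed between 125 and 180.0 CPM in all mice. Masp2 averaged 287 ± 25.4, 295 ± 22.6, 292 ± 49.3 and 304 ± 33.2 CPM from 0 to 50 mg/kg.

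C3, the component on which the complement pathways meet, was at 4205, 3415, 5439, 4533 and 3615 CPM at 0 mg/kg, 4639, 6374, 4267, 5451 and 4600.0 at 0.5, 3485 to 10892 (median 4209) at 5 and 2858 to 7613 (median 4520.0) at 50. The groups overlapped throughout, and the highest value, in 5 mg/kg replicate 6, was far above the next mouse of that dose. Its log2 fold changes were 0.22 at 0.5 mg/kg, 0.19 at 5 and 0.10 at 50, with standard errors of 0.25 to 0.27. Cfb, the protease of the alternative pathway, was at 13.2, 15.9, 17.1, 13.4 and 6.8 CPM at 0 mg/kg, 14.1, 21.02, 13.8, 15.7 and 13.1 at 0.5, 8.09 to 16.6 (median 9.53) at 5 and 6.7 to 15.6 (median 10.46) at 50. Its lone control in the run from 619 was the lowest control, and the fold change at 5 mg/kg was -0.39 (run from 601) and 0.51 (run from 619).

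Among the complement inhibitors, C4bp, a cofactor that disables C4b, was at 659.7, 1138, 664, 835 and 660.3 CPM at 0.5 mg/kg, against 471, 469, 531, 569 and 598 at 0 mg/kg. Every 0.5 mg/kg mouse was above every control, and replicate 2 stood well above the other 4. At the higher doses C4bp had 500.3 to 708 (median 599.5) CPM at 5 mg/kg and 513 to 846 (median 679) at 50 mg/kg, both overlapping the controls. Its log2 fold change at 0.5 mg/kg was 0.57 (95% interval 0.22 to 0.93), 0.65 within the run from 601, 0.32 within the run from 619 and 0.38 without both mice of high Saa1. Vtn (vitronectin, which blocks pore insertion), the most abundant inhibitor, was at 1112, 1004, 1472, 1579 and 831 CPM at 0 mg/kg, 946, 1260.0, 1274, 1811 and 1748 at 0.5, 961 to 2394 (median 1331) at 5 and 668 to 2261 (median 1168) at 50, with wide overlap. Cfi, which cleaves C3b and C4b, averaged 392 ± 71.2, 506 ± 143, 524 ± 163 and 475 ± 157 CPM from 0 to 50 mg/kg. Serping1, the C1 inhibitor, averaged 420.5 ± 66.6, 503 ± 92.8, 479.8 ± 122 and 462 ± 146. All 4 inhibitors had positive fold changes in each dose comparison, between 0.06 and 0.57.

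The terminal components C5 (gene Hc), C6, C8 and C9 assemble into the pore. C9 was at 836, 1348, 1001, 993 and 743 CPM at 0.5 mg/kg, against 709, 732, 625, 722 and 729.9 at 0 mg/kg. The controls were tightly grouped and all 5 dosed mice lay above them, with the nearest dosed mouse, replicate 5, just above the highest control. C9 had 541 to 869 (median 742) CPM at 5 mg/kg and 501 to 968 (median 774) at 50 mg/kg, spanning the controls on both sides. The log2 fold change at 0.5 mg/kg was 0.48 (SE 0.18), and it was 0.33 without both mice of high Saa1. C6 did not go along with the others in 5 mg/kg replicate 6. It was at 416, 281, 282, 342 and 304 CPM at 0 mg/kg, 253, 471, 282, 388 and 214 at 0.5, 78.3 to 439.6 (median 245) at 5 and 126 to 401 (median 302) at 50, and its lowest value of all was in that mouse, in which 17 of the other genes were highest. The 3 chains of C8 differed in steadiness, with coefficients of variation of 15.0% for C8g, 19.9% for C8a and 30.7% for C8b. C8a averaged 956 ± 113, 1148 ± 233, 956 ± 136 and 1039 ± 266 CPM from 0 to 50 mg/kg, C8b 326 ± 80.4, 455 ± 129, 400.4 ± 111 and 388 ± 142, and C8g 311 ± 51.0, 385 ± 52.8, 340.1 ± 52.6 and 340.2 ± 39.7. Hc averaged 1052 ± 138, 1246 ± 299, 1011 ± 176 and 1097 ± 271 CPM.

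The vitamin K dependent proteins include the clotting proteases prothrombin (F2) and factors VII, IX and X and the anticoagulants protein C (Proc) and protein S. Pros1 was at 82.4, 122, 76.5, 68.1 and 64.7 CPM at 0.5 mg/kg, against 57.1, 53.1, 54.9, 50.6 and 65.0 at 0 mg/kg. Of the dosed mice 4 were above every control, and replicate 5 lay just below the highest control. It had 58.0 to 94.0 (median 66.0) CPM at 5 mg/kg and 46.7 to 85.5 (median 69.1) at 50, and its log2 fold change at 0.5 mg/kg, 0.56 (95% interval 0.22 to 0.89), was 0.77 within the run from 601 and 0.03 within the run from 619. F9 had 349, 439, 349, 251 and 264 CPM at 0.5 mg/kg, against 234, 228, 256, 176 and 321 at 0 mg/kg, overlapping them. It had 177 to 291 (median 254) CPM at 5 mg/kg and 221 to 392 (median 281) at 50. The sign of its fold change at 0.5 mg/kg depended on the run, with 0.73 (run from 601) and -0.32 (run from 619).

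F2, the most abundant of this group, was at 1001, 898, 1218, 1407 and 891 CPM at 0 mg/kg, 815, 982, 1170.0, 1555 and 1602 at 0.5, 989 to 1720.0 (median 1254) at 5 and 672 to 1605 (median 1126) at 50. F2, F10 and Proc shared an order of mice at 0.5 mg/kg, with replicates 4 and 5 highest, the mice of the run from 619, and replicate 1 lowest. Proc had 289, 292, 410.0, 539.9 and 580.1 CPM at 0.5 mg/kg, against 359, 376, 428, 440.3 and 335 at 0 mg/kg, and F10 had 158, 183, 208, 292 and 299.9, against 219.5, 197, 219, 295 and 148 at 0 mg/kg. F7 averaged 89.8 ± 8.9, 85.3 ± 12.6, 95.9 ± 21.97 and 96.2 ± 12.9 CPM from 0 to 50 mg/kg. Proz, the cofactor of a factor X inhibitor, averaged 338 ± 36.8, 379 ± 42.4, 384 ± 51.4 and 387 ± 60.7.

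In the contact system, factor XII, factor XI, prekallikrein (Klkb1) and the kininogens interact on charged surfaces, and kallikrein releases bradykinin from kininogen. Kng1 was at 934, 952, 1128, 1134 and 985 CPM at 0 mg/kg, 1004, 2135, 1316, 1799 and 1680.0 at 0.5, 1130.0 to 3307 (median 1386) at 5 and 927 to 2259 (median 1456) at 50. The controls were close together, and the lowest mouse of each dosed group fell within or below their range. Log2 fold changes were 0.58 at 0.5 mg/kg, 0.58 at 5 and 0.44 at 50, and within the runs from 601 and 619 they were 0.48 and 0.82, 0.38 and 0.92, and 0.47 and 0.57. Kng2, a close copy of Kng1 with which it can share reads, was at 144, 169, 190.3, 172 and 183 CPM at 0 mg/kg, 187, 299, 199.7, 240.1 and 250.5 at 0.5, 171 to 457 (median 209) at 5 and 133 to 269 (median 230.2) at 50. The Kng2 to Kng1 ratio was 0.115 to 0.186 over all mice, a 1.62-fold span, where Kng1 itself spanned 3.57-fold and Kng2 3.42-fold. The part of shared reads in this was not tested.

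F11 went opposite to the kininogens in sign. It was at 81.6, 123, 75.8, 168 and 104 CPM at 0 mg/kg, 93.4, 69.2, 69.8, 115 and 76.6 at 0.5, 58.1 to 141 (median 92.1) at 5 and 61.9 to 131 (median 97.1) at 50. The dosed mice lay within the broad span of the controls or below it, and the highest value of all was a control, replicate 4. Log2 fold changes were -0.47 (95% interval -0.92 to -0.01), -0.26 and -0.38 at 0.5, 5 and 50 mg/kg, and the one at 5 mg/kg was -0.48 (run from 601) and 0.21 (run from 619). F12 averaged 338 ± 58.0, 341 ± 74.0, 347 ± 67.2 and 341 ± 70.9 CPM from 0 to 50 mg/kg and Klkb1 307 ± 30.7, 346 ± 34.9, 316 ± 56.8 and 343 ± 43.8. The factor V cofactor gene F5 was at 365, 426, 489.8, 425 and 409 CPM at 0 mg/kg, 384, 527, 432, 577 and 436 at 0.5, 364 to 559 (median 435) at 5 and 389 to 524 (median 454) at 50, all overlapping. F13b, the carrier subunit of the enzyme that cross-links fibrin, was at 256, 262, 277, 206 and 344 CPM at 0 mg/kg, 258, 423, 340.2, 309.9 and 294 at 0.5, 217 to 299 (median 279) at 5 and 264 to 389.7 (median 309) at 50, with the control of the run from 619 the highest control.

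**Figure D3:**
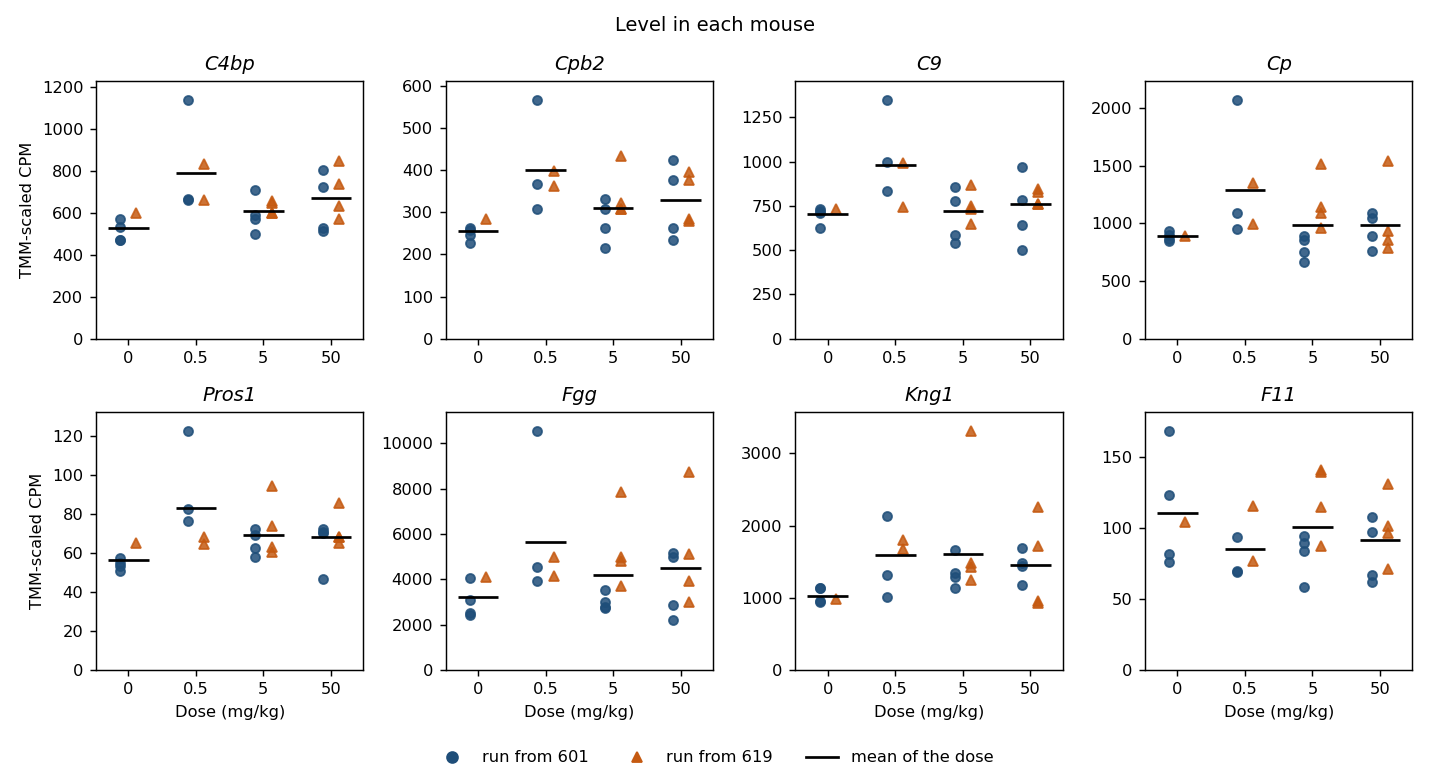
TMM-scaled CPM of 8 genes (panels) in each mouse by dose in mg/kg, with circles for the run from 601, triangles for the run from 619 and a black line at the mean of the dose. In Fgg 0.5 mg/kg replicate 2 stands far above its group at 10536 CPM, and in C4bp, C9 and Cpb2 all 0.5 mg/kg mice lie above the 0 mg/kg mice.

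The fibrinogen genes Fga, Fgb and Fgg encode the alpha, beta and gamma chains that assemble into 1 protein. On mm10 Fgg lies at chr3:83007724-83015049 and Fga at chr3:83026076-83033627, both on the plus strand, and Fgb at chr3:83040141-83049863 on the minus strand. They were the most variable of the 47, with coefficients of variation of 50.1% for Fga, 47.9% for Fgb and 45.4% for Fgg. Fgg was at 3064, 2421, 2524, 4065 and 4090.0 CPM at 0 mg/kg, 4530.0, 10536, 3935, 4984 and 4164 at 0.5, 2720.0 to 7849 (median 3616) at 5 and 2203 to 8728 (median 4457) at 50. At 0.5 mg/kg replicate 2 was far above the rest, whose 4 values ran from within the control range to above it. Fgb was at 3102, 2607, 2331, 4381 and 3512 CPM at 0 mg/kg, 4470.0, 9727, 3527, 5431 and 4110.0 at 0.5, 2658 to 9296 (median 3772) at 5 and 2329 to 9894 (median 4345) at 50. Fga was at 2293, 1840.0, 1837, 3781 and 1863 CPM at 0 mg/kg, 2872, 4299, 2003, 3779 and 3060.0 at 0.5, 1428 to 5789 (median 2759) at 5 and 1159 to 8154 (median 2685) at 50. For both, the highest mouse of all was 50 mg/kg replicate 8, and the groups overlapped.

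The log2 fold changes at 0.5 mg/kg of 0.77 for Fgg and 0.72 for Fgb were 0.18 and 0.13 without both mice of high Saa1, and 0.30 and 0.27 without replicate 2 alone. The beta and gamma chains kept a nearly fixed ratio and the alpha chain did not. Fgg over Fgb ranged from 0.844 to 1.165, a 1.38-fold span, while Fga over Fgb ranged from 0.436 to 0.863, a 1.98-fold span. In 0.5 mg/kg replicate 2 Fga over Fgb was 0.442 and in 50 mg/kg replicate 7 it was 0.436, the lowest values, although fibrinogen was near its highest level in the first mouse and low in the other. In 50 mg/kg replicate 8, the mouse with most Fga and Fgb, the ratio was 0.824.

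**Figure D4:**
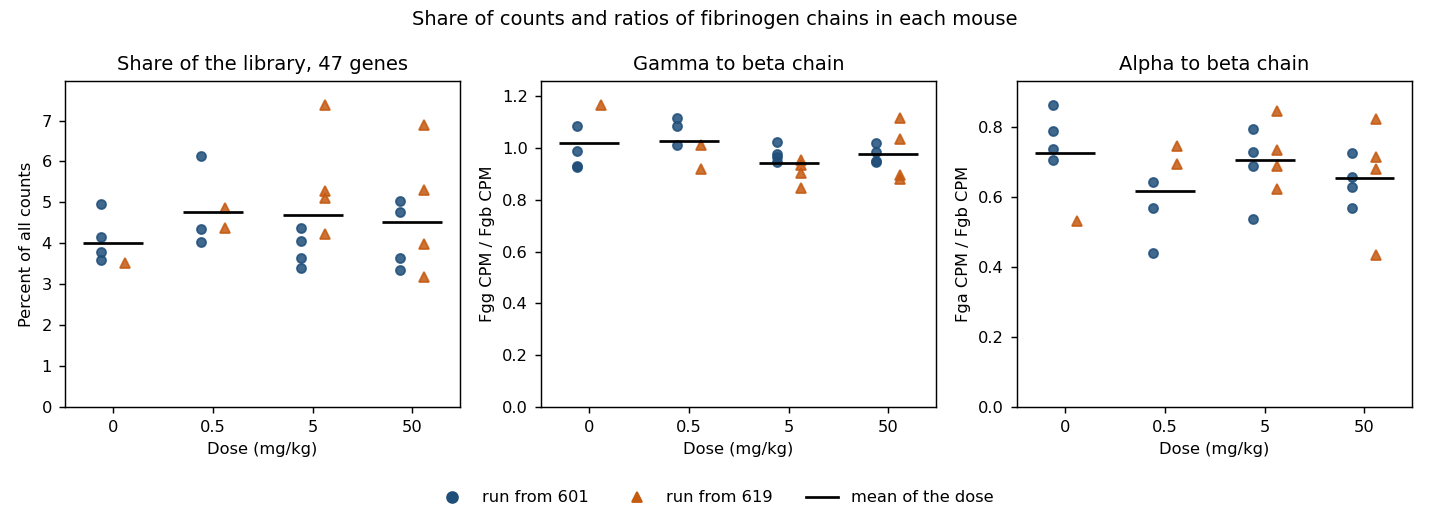
Share of all counts taken by the 47 genes (left, percent) and the CPM ratios Fgg to Fgb (middle) and Fga to Fgb (right) in each mouse by dose, with circles for the run from 601, triangles for the run from 619 and lines at the dose means. The share runs from 3.175% to 7.374% with overlap between all doses, and the alpha to beta ratio spreads more widely than the gamma to beta ratio.

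Fibrinolysis is carried by plasminogen (Plg) and held back by antiplasmin (Serpinf2) and by Cpb2, a carboxypeptidase that removes plasminogen's docking sites from fibrin. Cpb2 was at 309, 567, 368, 399 and 363 CPM at 0.5 mg/kg, against 264, 247, 228, 257 and 283 at 0 mg/kg. All 5 dosed mice were above all controls, with replicate 2 highest. It had 215 to 433 (median 309) CPM at 5 mg/kg and 235 to 426 (median 331) at 50 mg/kg, and both groups overlapped the controls. Its log2 fold change at 0.5 mg/kg was 0.63 (95% interval 0.25 to 1.01), 0.70 and 0.43 within the runs from 601 and 619, and 0.47 without both mice of high Saa1. Plg was at 1504, 1427, 1526, 1866 and 1262 CPM at 0 mg/kg, 1174, 1453, 1612, 2362 and 2003 at 0.5, 1368 to 2830.0 (median 1646) at 5 and 938 to 2568 (median 1690.0) at 50, with overlap throughout. Serpinf2 averaged 492 ± 149, 513 ± 133, 593 ± 182 and 559.6 ± 198 CPM from 0 to 50 mg/kg.

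The anticoagulant serpins are antithrombin (Serpinc1) and heparin cofactor II (Serpind1), which both inhibit thrombin. Serpind1 was at 234, 609.7, 412, 607 and 504 CPM at 0.5 mg/kg, against 296, 307, 352, 376 and 304 at 0 mg/kg. At 0.5 mg/kg 4 mice were above every control and replicate 1 was below every control, the lowest of all 26 mice. Serpind1 had 314 to 733 (median 429.7) CPM at 5 mg/kg and 312 to 538 (median 385) at 50, and its log2 fold change at 0.5 mg/kg was 0.47, or 0.65 without replicate 1. Serpinc1 averaged 1284 ± 160.2, 1396 ± 353, 1482 ± 272 and 1395 ± 260.0 CPM from 0 to 50 mg/kg.

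Of the plasma carriers, Hpx was at 2763, 2060.0, 1945, 3238 and 1415 CPM at 0 mg/kg, 3410.0, 4622, 2281, 3090.0 and 2656 at 0.5, 1417 to 5344 (median 2482) at 5 and 1553 to 4160.0 (median 2595) at 50. The control of the run from 619 had the lowest Hpx of all 26 mice, and likewise the lowest Hp. Hp averaged 1855 ± 643, 2874 ± 1000, 2128 ± 878 and 2340.0 ± 1162 CPM from 0 to 50 mg/kg. Cp, the copper carrier ceruloplasmin, was at 1086, 2069, 951, 1347 and 992 CPM at 0.5 mg/kg, against 865, 850.2, 902, 931 and 889 at 0 mg/kg. Its controls were within a narrow band and all 5 dosed mice were above it, replicate 2 by far the most. Cp had 662 to 1511 (median 924) CPM at 5 mg/kg and 762 to 1539 (median 914) at 50, and its log2 fold change at 0.5 mg/kg, 0.51 (SE 0.22), was 0.14 without both mice of high Saa1.

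Itih3 and Itih4 encode heavy chains related to those of inter-alpha inhibitors. Itih3 was at 2523, 2582, 1113, 992 and 815 CPM at 0.5 mg/kg, against 1191, 933, 769, 1076 and 1196 at 0 mg/kg. Replicates 1 and 2 were about level with each other and far above every other mouse, and the remaining 3 lay within the control range. At the higher doses it had 732 to 1774 (median 916) CPM at 5 mg/kg and 663 to 1581 (median 1190.0) at 50. The log2 fold change at 0.5 mg/kg, 0.64 (95% interval 0.04 to 1.23), turned to -0.22 without those mice, and was 1.03 (run from 601) and -0.40 (run from 619). Itih4 averaged 1106 ± 204, 1416 ± 350.5, 1248 ± 504 and 1310.0 ± 557 CPM from 0 to 50 mg/kg, and its highest value, 2442 CPM, was in 5 mg/kg replicate 6.

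The mice that were high in these genes differed in which genes were high and in their Saa1. In 0.5 mg/kg replicate 2, with Saa1 at 3233 CPM, 15 of the 47 genes had their highest value of all 26 mice, among them Fgg, Hp, Itih3, C9, C4bp, Cp, Cpb2 and F9, while Vtn was at 1260.0 CPM, within the control range. In 5 mg/kg replicate 6, with Saa1 at only 74.2 CPM, 17 genes had their highest value, among them C3 at 10892, Kng1 at 3307, Hpx at 5344, Plg at 2830.0 and Vtn at 2394 CPM. In that library Alb, the albumin gene, was at 106224 CPM, and in 0.5 mg/kg replicate 2 it was at 105976. At the low end, 50 mg/kg replicate 7 had the lowest value of 15 genes, and 50 mg/kg replicate 1 and 5 mg/kg replicate 8 each had the lowest of 7.

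At 50 mg/kg the 8 mice fell apart by how many of the 47 genes were above the gene's median of all 26 mice. Replicates 3, 4, 5 and 8 had 42, 41, 44 and 38 such genes, while replicates 1, 2, 6 and 7 had 8, 12, 11 and 10. Saa1 was at 597, 655, 362 and 176 CPM in replicates 3, 4, 5 and 8 and at 27.7, 29.5, 30.1 and 34.0 in replicates 1, 2, 6 and 7. The 10 hepatocyte markers summed to 83319, 87487, 79820 and 104966 CPM in replicates 3, 4, 5 and 8 and to 67682, 71717, 51987 and 59439 in replicates 1, 2, 6 and 7. The list of other secreted liver proteins summed to 105952 to 133102 CPM in the first 4 of these mice and to 71487 to 90570 in the rest. The same mice were thus high in all of these measures at this dose, and each set had mice of both runs. The hepatocyte and the secreted protein lists both include Alb, so their sums are not separate measures. In 5 mg/kg replicate 6, Alb alone was 106224 of the 126444 CPM of the hepatocyte markers. What the measures have to do with each other was not tested. At 0 mg/kg replicate 4, with the highest control Saa1 of 282 CPM, had 28 such genes and the other 4 controls had 9 to 14. At 0.5 mg/kg the order was different: replicates 4 and 5 had 42 and 33 such genes at a Saa1 of 65.0 and 19.3 CPM, and replicate 1 had 19 at 2311. At 5 mg/kg the count ran from 6 in replicate 1 to 39 in replicates 5 and 6.

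**Figure D5:**
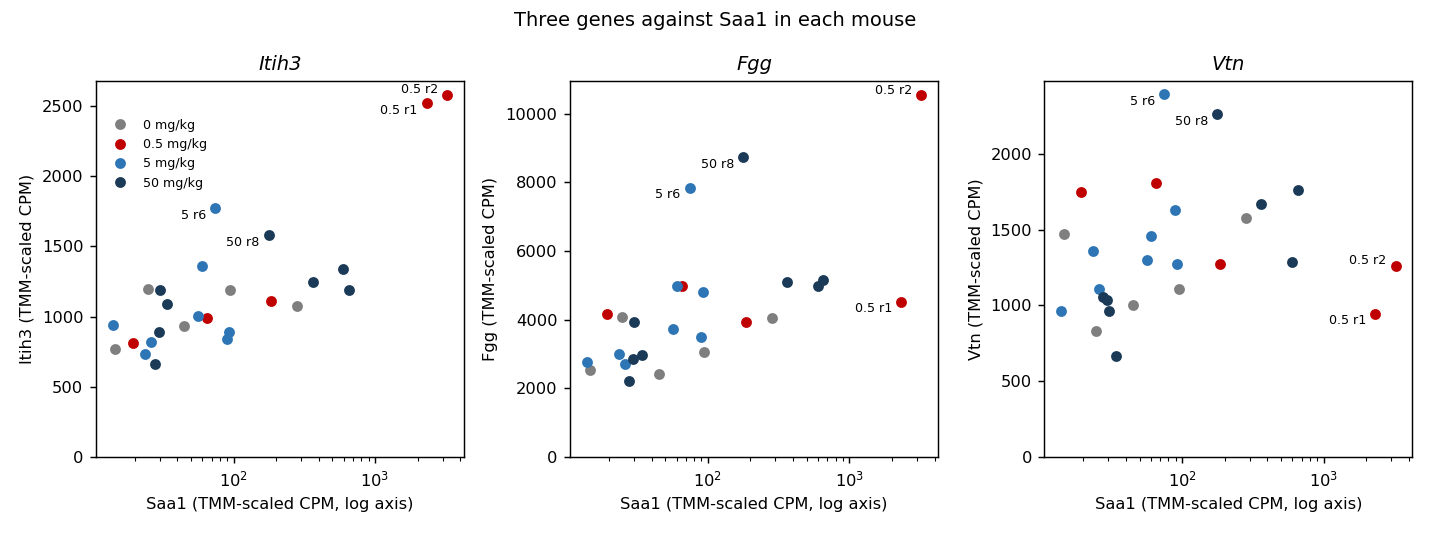
TMM-scaled CPM of Itih3, Fgg and Vtn (vertical axes) against Saa1 (horizontal log axis) in each mouse, coloured by dose. The 0.5 mg/kg replicates 1 and 2 are highest in Saa1 and in Itih3, only replicate 2 of them is high in Fgg, and neither is high in Vtn, where 5 mg/kg replicate 6 and 50 mg/kg replicate 8 lead.

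Between the runs of mouse numbers, with dose in the model, 40 of 47 fold changes were positive in the run from 619 against the run from 601, beside 54.0% of all genes. None of the 47 passed, while 0.0902% of all genes did (0.0694% positive and 0.0208% negative). At an unadjusted p under 0.05 there were 3 of 47, 2 positive and 1 negative, beside 7.98% of all genes (4.16% and 3.83%). The 8 of smallest p were F11 (0.33), Cfb (-0.33), Fga (0.56), Fgb (0.46), Serpinf2 (0.33), Fgg (0.40), C2 (-0.22) and Masp2 (-0.15), with the smallest adjusted p at 0.551 (edgeR, Benjamini-Hochberg). At 5 mg/kg Fga averaged 4207 ± 1249 CPM in the 4 mice of the run from 619 and 2139 ± 538 in the 4 of the run from 601 (SD). At 50 mg/kg the Fga averages were 3998 ± 3018 and 2507 ± 1010.0. Without 5 mg/kg replicate 6 and 50 mg/kg replicate 8, the positive count between runs was 26 of 47 (53.8% of all genes). The difference between 50 and 5 mg/kg did not pass a test of whether it varied with run for any of the 47 (0% of all genes passed), with 0 of 47 at an unadjusted p under 0.05 beside 5.11% of all genes.

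The rest of the pathway was taken from lists of other complement and other coagulation genes. Of 20 other complement genes tested, 10 were positive at 0.5 mg/kg, 7 at 5 and 9 at 50, each against 0 mg/kg, and 0 passed in any. Of 15 other coagulation and fibrinolysis genes, 11, 9 and 9 were positive at these doses and 0 passed. At 0.5 mg/kg 4 of the 15 had an unadjusted p under 0.05, 2 positive and 2 negative, beside 6.99% of all genes. At 5 mg/kg there were 3, 1 positive and 2 negative (6.18% of all genes), and at 50 mg/kg 1, negative (5.11%). Log2 fold changes of this list at 0.5 mg/kg ran from -0.576 to 0.655. Ggcx, the carboxylase that acts on the vitamin K dependent proteins, had log2 fold changes of -0.42, -0.37 and -0.20 at 0.5, 5 and 50 mg/kg, and Vwf, the von Willebrand factor of endothelium, had -0.58, -0.71 and -0.53. Of other secreted liver proteins, 16 of 17 were positive at 0.5 mg/kg, 15 at 5 and 13 at 50, and Alb had 0.73, 0.40 and 0.47. None of these lists had a gene past the adjusted threshold at any dose.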

How the data were processed

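The authors deposited raw read counts per gene for 26 livers, not normalized. bcl2fastq, featureCounts and the mm10 build are named in the submitters' processing notes; the aligner, annotation, strand setting and versions are not given in the sources used here, so overlapping genes and close copies (Kng1 and Kng2, C4a and C4b) are uncertain. The 26 single-library files and the combined table differed in 0 values, and the table had 0 columns of other samples. Groups are the doses in the labels.

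Counts were scaled by TMM and tested with edgeR 4.0.16 (R 4.3.3; filterByExpr by dose, robust quasi-likelihood fit with dose and run as terms over all 26 mice), adjusted by Benjamini-Hochberg over 14415 genes at 0.05. These genes held 99.7% of reads. For the 47 genes, median standard errors on the log2 scale were 0.22 at 0.5, 0.20 at 5 and 0.20 at 50 mg/kg, each against 0 mg/kg. CPM are counts scaled to TMM-corrected library size, and RPKM divides them by exon length from GENCODE M21 on mm10, in which all 47 genes were found. DESeq2 1.42.0 and limma 3.58.1 (voom) were alternatives, with other scalings and filters, no run term, each run alone, and mice left out. The edgeR script was tested on simulated data.

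Genes, lists and mice to leave out were chosen with earlier results of these data known, and leaving out 5 mg/kg replicate 6 with 50 mg/kg replicate 8 was added after seeing the data. Fold changes are named for the 12 genes of smallest p per dose against 0 mg/kg, 8 between runs and 4 per other dose pair, and levels for those and the most abundant gene of each role (C3 also with its fold changes); other genes are given by means or ranges. From the other lists at most 3 genes of smallest p are named in a comparison, with Saa1, Alb and Zbtb16 as context. Beside these, genes were singled out in a mouse after their values were seen.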

Additional observations from a re-analysis of the deposited data

Results flagged for a closer look

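In each dose, the highest and lowest mouse was checked for each of the 47 genes and for their share of the library's counts. The check was for a gap to the next mouse that is wide against the whole spread of the group (Dixon's criterion at 95%). Saa1 was not checked in this way. Of 192 such groups, 25 had a mouse that stood apart, and chance alone gives about 1 in 20 groups. Genes of a mouse are not independent, so many flags in 1 mouse are not separate events.

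In 5 mg/kg replicate 6, 14 genes stood apart from the other 7 mice of that dose, all on the high side. These were C3 at 10892 CPM (next mouse 5067), Hpx at 5344, Fgb at 9296, Fgg at 7849, Hp at 3995, Kng1 at 3307, Itih4 at 2442, Vtn at 2394, Cfi at 894 (next 565), Mbl2 at 833, Serping1 at 752, Serpind1 at 733, Kng2 at 457 and Pros1 at 94.0 CPM. They include complement, clotting, contact system and carrier genes, while C6 was lowest in the same mouse.

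In 50 mg/kg replicate 8, 4 genes stood apart on the high side: Fga at 8154 CPM (next mouse 4094), Fgb at 9894, Fgg at 8728 and Cp at 1539 CPM. At 0.5 mg/kg Fgg stood apart in replicate 2 at 10536 CPM (next mouse 4984), and C1s1 in replicate 1 at 482 CPM, below the next at 598.

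Among the controls, Fga at 3781 CPM and Serpinf2 at 753 CPM stood apart on the high side in replicate 4, and C9 at 625 CPM on the low side in replicate 3. The other flagged values were C2 at 49.7 CPM in 5 mg/kg replicate 3 and C8g at 435 CPM in 50 mg/kg replicate 5.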

How the results depend on the processing

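No paired analysis was possible because no mouse number is shared between doses. None of the 47 genes passed the adjusted threshold under any alternative run, so these counts say nothing of changes too small for 5 to 8 mice per dose. The nearest at 0.5 against 0 mg/kg was an adjusted p of 0.0596 (edgeR, Benjamini-Hochberg) in the run from 601 alone. Without 1 mouse at a time, the count at an unadjusted p under 0.05 at 0.5 against 0 mg/kg was 3 to 16 (5.22% and 9.08% of all genes). Within the run from 601 it was 13 (16.2%), within that from 619 it was 2 (12.7%), and it was 4 without both mice of high Saa1 (11.1%). Positive fold changes numbered 23 at 5 against 0 mg/kg in the run from 601, and at 50 against 0.5 mg/kg 18 in either run, 17 without both mice of high Saa1 and 4 to 15 without 1 mouse. They numbered 5 to 16 at 5 against 0.5 mg/kg without 1 mouse, and 26 between runs without 5 mg/kg replicate 6 and 50 mg/kg replicate 8. The cause of each shift was not tested beyond which mice were left out.

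Some fold changes named by small p in a comparison turned in the run from 619, with its lone control. Against 0 mg/kg they were Cfb (0.51) and F11 (0.21) at 5 mg/kg, F13b (-0.11) and F9 (-0.22) at 50, and F9 (-0.32) and Itih3 (-0.40) at 0.5. Itih3 also turned at 50 against 0.5 mg/kg (0.50). Many fold changes not named by p turned in that run too. Among them were C4b (0.53), Hc (0.41), F9 (-0.43) and F13b (-0.35) at 5 mg/kg. At 0.5 mg/kg Mbl1 (-0.49) and Serpinf2 (0.72) were others. Without both mice of high Saa1, Itih3 had -0.22 at 0.5 against 0 mg/kg and 0.26 at 50 against 0.5 mg/kg. Without those mice, genes not named by p at 0.5 against 0 mg/kg also turned. C4b (-0.157), Mbl1 (-0.137), Fga (-0.075) and Itih4 (-0.066) became negative, and F7 (0.074), F12 (0.174) and Serpinf2 (0.078) became positive.

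Over all genes, DESeq2 called 7 at 0.5, 4 at 5 and 3 at 50 mg/kg against 0 mg/kg, 8 at 5 against 0.5, 1 at 50 against 0.5 and 108 between runs, where limma-voom called 1 and leaving out 5 mg/kg replicate 6 and 50 mg/kg replicate 8 gave 4. The run from 601 alone gave 33 at 0.5 and 4 at 50 against 0 mg/kg, while no run term, and the run from 619 alone, gave 0 at 50. Without 1 mouse the counts were 0 to 3 at 5 against 0, 0 to 3 at 5 against 0.5, 0 to 1 at 50 against 0 and 2 to 60 between runs.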

Other observations

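Strong acute phase genes formed a list apart from the 47. Of 17 tested, 16 had positive fold changes at 0.5 mg/kg, 12 at 5 and 13 at 50, each against 0 mg/kg, with medians of 1.18, 0.30 and 0.61 on the log2 scale, and 0 passed the adjusted threshold in edgeR. At 0.5 mg/kg, 12 of the 17 had an unadjusted p under 0.05, where 6.99% of all genes did. Their summed level in CPM was 9424 for replicate 1 at 0.5 mg/kg, 15056 for replicate 2 and 2995 to 3480 for replicates 3 to 5, against 2010 to 2914 at 0 mg/kg. Hamp, which encodes the iron hormone hepcidin, had log2 fold changes of 1.30, 1.02 and 0.99 from 0.5 to 50 mg/kg, with standard errors of 0.30 to 0.32. It was at 322, 298, 395, 358 and 402 CPM at 0 mg/kg, 657, 1238, 674, 618 and 1080.0 at 0.5, 425 to 1183 (median 593) at 5 and 185 to 989 (median 737) at 50. Every mouse at 0.5 and 5 mg/kg was above every control, where 0.645% and 0.0832% of all genes were so separated. At 50 mg/kg only replicate 7 was below them. Hamp was picked from the 17 for its small p and did not pass the adjusted threshold. Serpina3m, a protease inhibitor of the acute phase, had 1.16, 0.62 and 0.93.

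Of 12 genes of interleukin-6 and STAT3 signalling, 10 had positive fold changes at 0.5 mg/kg, 5 at 5 and 9 at 50, each against 0 mg/kg, with medians of 0.46, -0.005 and 0.13 on the log2 scale. Jak2, a kinase of the interleukin-6 receptor, had log2 fold changes of 0.46, 0.26 and 0.33 at the same doses, and none of the 12 passed the adjusted threshold in edgeR at any dose.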
